A study of Mus musculus with 3 samples.

Results

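The genes described here are 39 mouse genes of the glutamatergic synapse: 4 AMPA receptor subunits, 5 kainate receptor subunits, 6 NMDA receptor subunits, 3 metabotropic glutamate receptors, 4 auxiliary subunits of AMPA receptors, 3 neuroligins, 2 neurexins, 4 scaffolds of the Dlg family, 3 Homer and 3 Shank scaffolds and 2 neuronal pentraxins. They were taken by symbol from the count tables, which list 27999 entries, and all 39 were found. Counts of unique molecular identifiers (UMIs, one per captured RNA molecule) came from single cells of 3 brain tumours, labelled replicates 1, 2 and 4 and called tumours 1, 2 and 4 below. All 3 animals carried the genotype H3f3aK27M PdgfraD842V Trp53R270H, a set of transgenes for a mutant histone H3.3, an activated platelet-derived growth factor receptor and a mutant p53, and were heterozygous for the membrane reporter allele Gt(ROSA)26Sortm4(ACTB-tdTomato,-EGFP)Luo on a B6.129(Cg) background. The constructs (MADR, which inserts a transgene cassette at a chosen locus) were electroporated into the brain at postnatal day 1 to 2, and the tumours were collected at postnatal day 150 (tumour 1), 106 (tumour 2) and 149 (tumour 4), microdissected and sorted for GFP. There was 1 group and no tumour-free control, so the comparisons are between cell classes within tumours.

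Fast excitatory transmission runs through AMPA receptors, whose gating and surface delivery are set by auxiliary subunits (TARPs); NMDA receptors are calcium-permeable coincidence detectors, kainate receptors modulate release and excitability, and metabotropic receptors signal through G proteins. Neuroligins on the receiving cell bind neurexins on the axon, and the Dlg, Homer and Shank proteins hold receptors in place under the membrane. Oligodendrocyte precursors carry AMPA and NMDA receptors and receive synapses from axons, a trait they lose as they mature into myelinating oligodendrocytes, and gliomas with precursor-like cells are known for glutamatergic input from neurons.

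Promoter windows are shown first for genes that differed between classes in the comparisons below. They are printed where the window of a RefSeq entry (build GRCm38.p6) lay outside the annotated gene body. These windows directly precede the start of genes whose RNA is compared. Of the 39 genes, 25 had a RefSeq promoter entry, and 3 genes with a class difference met that condition. Gria2 and Grin1 were lower, and Dlg1 higher, in oligodendrocyte-like than in progenitor-like cells. Each sequence is the 250 bases before the start, 5′ to 3′ on the gene's strand. Capitals mark the GC box GGGCGG and the E-box CANNTG, on either strand.
Gria2, chr3:80802836-80803085, minus strand: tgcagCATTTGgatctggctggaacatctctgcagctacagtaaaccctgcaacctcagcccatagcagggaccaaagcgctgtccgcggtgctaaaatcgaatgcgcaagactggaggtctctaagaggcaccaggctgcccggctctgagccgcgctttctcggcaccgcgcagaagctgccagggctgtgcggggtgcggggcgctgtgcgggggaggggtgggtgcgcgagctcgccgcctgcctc
Grin1, chr2:25319188-25319437, minus strand: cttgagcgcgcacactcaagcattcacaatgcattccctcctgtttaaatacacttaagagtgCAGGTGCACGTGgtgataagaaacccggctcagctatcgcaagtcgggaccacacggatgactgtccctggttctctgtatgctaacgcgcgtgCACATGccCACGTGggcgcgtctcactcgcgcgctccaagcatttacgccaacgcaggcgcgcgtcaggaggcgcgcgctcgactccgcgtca
Dlg1, chr16:31663193-31663442, plus strand: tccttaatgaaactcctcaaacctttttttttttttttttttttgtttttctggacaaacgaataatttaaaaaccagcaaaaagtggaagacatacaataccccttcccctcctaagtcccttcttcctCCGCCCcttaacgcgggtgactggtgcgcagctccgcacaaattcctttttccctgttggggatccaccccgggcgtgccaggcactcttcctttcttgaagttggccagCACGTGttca
The Grin1 window held 4 E-boxes and no GC box, the Gria2 window 1 E-box and no GC box, and the Dlg1 window 1 of each; no E-box overlapped a GC box. The Grin1 window contained 27 CpG dinucleotides at 58.8% G and C, the Gria2 window 19 at 64.8%, and the Dlg1 window 9 at 46.0%. Among 32851 mouse windows of the same length, 32.7% held a GC box and 66.2% an E-box, so neither match is rare. In all, 16 patterns were searched on both strands and these 2 were picked for display after their matches were seen. The other patterns, with the share of all windows that held each, were CAGCTG (13.0%, itself an E-box), ACAAAG (16.5%), AACAAT (9.42%), ACAAT (27.7%, contained in AACAAT), TGACGTCA (1.55%), TGACGTA (1.08%), CGTCA (17.8%, contained in TGACGTCA), TATAAA (12.4%), TGACTCA and TGAGTCA (4.46%, reverse complements of each other), the NRF1 site by its consensus (3.74%), TTCAGCACC (0.301%), CAGCACC (5.73%, contained in the preceding pattern) and GGACAG (18.7%). ACAAT was present in the Dlg1 and Grin1 windows, CGTCA in that of Grin1 and GGACAG in those of Gria2 and Grin1; the remaining patterns had no match in the 3 windows.

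The deposited tables held 3386, 1632 and 4624 cells with 47120617, 15231673 and 53551127 UMIs, and medians of 11908.5, 7570.5 and 9102.5 UMIs per cell in tumours 1, 2 and 4. The libraries shared 6 to 20 cell barcodes pairwise. Cells were clustered within each tumour without the 39 genes and without the other synapse genes counted below, and clusters were named from marker lists. The non-cycling progenitor-like cells (oligodendrocyte-precursor markers such as Pdgfra, with at most 1 UMI of 55 cell-cycle genes among 2000 UMIs) numbered 766, 59 and 1076. The cycling progenitor-like cells (at least 5 such UMIs) numbered 969, 56 and 950. Neuropeptide-high cells, which are non-cycling progenitor-like cells with at least 8 of 2000 UMIs from 18 neuropeptide and neurofilament genes, numbered 81 in tumour 1 and 234 in tumour 4. Tumour 2 had only 2 of them, which were not used. Oligodendrocyte-like cells numbered 420 in tumour 2 and 69 in tumour 4, and none were named in tumour 1. Astrocyte-like cells numbered 38 in tumour 1 and 190 in tumour 2, and none were named in tumour 4.

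Levels are given as UMIs of a gene per 1000000 UMIs of the class (CPM). These are 3′ tags that count molecules and were not divided by transcript length. The tumour 2 progenitor-like levels rest on few cells and stand apart. Its non-cycling cells came mainly from a cluster led by Pdgfra, Ednrb and Pcdh15, with Cacng4 and Grin3a also among its 10 leading genes, while its cycling cells came mainly from a different cluster led by cycling genes such as Top2a. Microglia-like cells, which should lack most of these genes, were present in all libraries despite the GFP sort (170, 364 and 83 cells) and served as the background. The summed level of the 39 genes was 911, 2076 and 1013 CPM in non-cycling progenitor-like cells and 727, 117 and 630 CPM in microglia-like cells. The 14 precursor markers summed to 3048, 5055 and 3431 CPM in the former and 1643, 134 and 1730 CPM in the latter. In tumours 1 and 4 the microglia-like clusters held much progenitor RNA, and the part of free RNA or of mixed droplets in the levels of other classes of these 2 tumours was not tested. In tumour 2 the microglia-like cells held little of it.

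**Figure D1:**
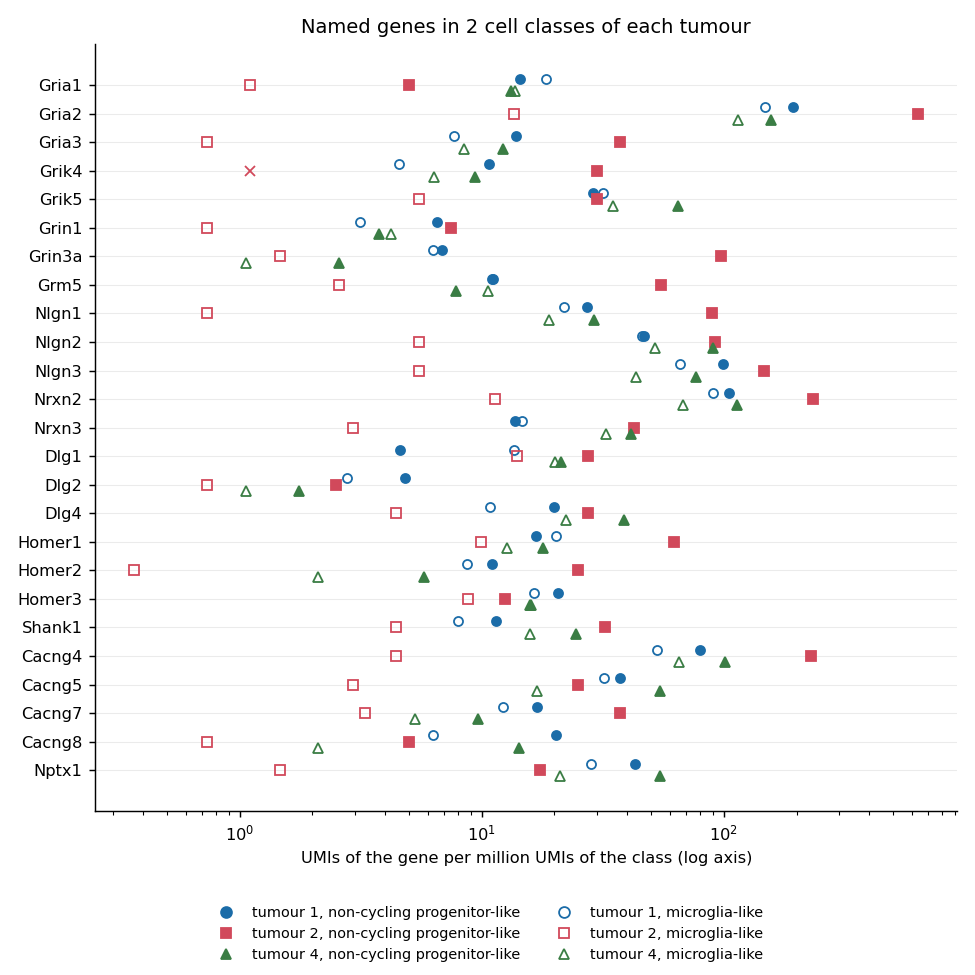
Level of the 25 genes named by the rule (a difference in any comparison, or at least 20 CPM in non-cycling progenitor-like cells of a tumour) in non-cycling progenitor-like cells (filled) and microglia-like cells (open) of each tumour, in CPM on a log axis; a cross marks a gene with 0 UMIs in microglia-like cells, drawn at the 3-count limit. In tumour 2 most open squares lie to the left of the filled ones (Gria2 13.6 against 637). By counting error 20 of the 25 genes were lower in microglia-like cells there, against 10 of 25 in tumour 1 and 10 of 25 in tumour 4. In tumour 1, 1 gene was higher. The rule picks genes partly by their non-cycling level.

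Among the AMPA subunits, Gria2, which makes the channel impermeable to calcium, measured 193, 637 and 157 CPM in non-cycling progenitor-like cells of tumours 1, 2 and 4 and 149, 13.6 and 114 CPM in microglia-like cells. It was highest in tumour 2, and only there did it exceed the background many times over. With each cell thinned to 2000 UMIs, a Gria2 UMI was found in 30.2%, 61.0% and 25.8% of non-cycling progenitor-like cells against 21.2%, 1.65% and 19.3% of microglia-like cells. Without thinning the shares were 81.1%, 94.9% and 66.2% against 58.2%, 6.87% and 41.0%, at median depths of 11056, 6531 and 9817.5 UMIs per progenitor-like cell and 13217, 7343.5 and 8943 per microglia-like cell. Gria1 was at 14.4, 5.00 and 13.2 CPM, Gria3 at 13.9, 37.5 and 12.3 CPM, and Gria4 at 10.4, 19.98 and 2.89 CPM in the non-cycling cells.

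Of the kainate subunits, Grik5, an obligate partner subunit, was at 28.8, 29.97 and 64.8 CPM, and Grik4 at 10.7, 29.97 and 9.39 CPM. Among the NMDA subunits the obligate Grin1 was low, at 6.55, 7.49 and 3.77 CPM. Grin3a, which lowers calcium entry through the receptor, was at 6.88, 97.4 and 2.57 CPM, with tumour 2 far above the others. Grm5, a metabotropic receptor coupled to calcium release, was at 11.1, 54.9 and 7.86 CPM. Grin2d had at most 0.0803 CPM in any of these 3 samples. These receptor genes had no common order across tumours: Grik5 was highest in tumour 4, Grin3a and Grm5 in tumour 2.

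The TARPs included Cacng4, a stargazin relative of glial precursors, at 79.5, 230 and 101 CPM, and Cacng5 at 37.4, 25.0 and 54.7 CPM. Cacng8 was at 20.3, 5.00 and 14.2 CPM and Cacng7 at 16.9, 37.5 and 9.63 CPM. The neuroligin Nlgn3, whose shed form is known to stimulate glioma growth, was at 99.0, 147 and 77.0 CPM, Nlgn2 at 46.8, 92.4 and 90.7 CPM, and Nlgn1 at 27.3, 89.9 and 29.2 CPM. The neurexin Nrxn2 was at 105, 235 and 114 CPM and Nrxn3 at 13.8, 42.5 and 41.2 CPM. Of the scaffolds, Dlg4 was at 19.98, 27.5 and 38.9 CPM, Dlg1 at 4.62, 27.5 and 21.2 CPM, Homer1 at 16.8, 62.4 and 17.9 CPM, Homer3 at 20.6, 12.5 and 15.97 CPM, and Shank1 at 11.5, 32.5 and 24.6 CPM. The pentraxin Nptx1, a secreted clusterer of AMPA receptors, was at 42.9, 17.5 and 54.7 CPM. Each tumour is 1 library, so differences between tumours have no replicate check. Grik4 and Cacng7, among others, reached 20 CPM only in tumour 2.

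The remaining 14 genes were low: none passed 23.0 CPM in any class of any tumour, and Grik2 gave that value in oligodendrocyte-like cells of tumour 4. A gene had to pass a filter on low counts to enter the test, and 33 of the 39 did; Grik1, Grin2a, Grin2c, Grin2d, Grm3 and Shank3 did not. Classes were compared with non-cycling progenitor-like cells on UMIs summed per tumour and class, in 1 fit with the tumour as a block across 12033 genes (edgeR's quasi-likelihood test, Benjamini-Hochberg adjustment over all of them, threshold 0.05). The sums of a tumour come from 1 library, and the p-values take the classes as given.

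Of the 4 comparisons, the one with oligodendrocyte-like cells gave the most calls. In these cells 12 of the 33 tested genes were lower and 3 were higher, where 9.24% of all tested genes were lower and 11.6% higher (20.9% in either direction). The median log2 fold change of the 33 was -0.99, against 0.01 over all tested genes. The lower genes came from the AMPA subunits and TARPs (Gria2, Gria3, Cacng4, Cacng8), NMDA subunits (Grin1, Grin3a), Grm5, both sides of the adhesion pair (Nlgn1, Nlgn3, Nrxn3) and the scaffolds Dlg4 and Homer2, whereas Dlg1, Dlg2 and Homer3 were higher. The comparison rests on 2 tumours.

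Nlgn1, a postsynaptic adhesion protein, fell from 89.9 to 7.81 CPM in tumour 2 and from 29.2 to 7.67 CPM in tumour 4, for a fitted log2 difference of -2.78 ± 0.40 (± SE; adjusted p = 0.000401). Nlgn3 fell from 147 to 15.4 CPM in tumour 2 and from 77.0 to 44.7 CPM in tumour 4 (-1.94 ± 0.41, adjusted p = 0.00524). Both were lower in each tumour, and both kept an adjusted p under 0.05 in all 16 alternative analyses that gave a value. Nrxn3 fell from 42.5 to 10.9 CPM in tumour 2 and from 41.2 to 23.0 CPM in tumour 4 (-1.62 ± 0.44, adjusted p = 0.0203). For the related Nrxn2, with 235 and 87.2 CPM in tumour 2 and 114 and 95.8 CPM in tumour 4, the adjusted p was 0.228.

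Gria2 fell from 637 to 56.9 CPM in tumour 2 and from 157 to 115 CPM in tumour 4 (-1.72 ± 0.50, adjusted p = 0.0273). The drop was thus large in tumour 2 and small in tumour 4, where the oligodendrocyte-like value lay next to the 114 CPM of microglia-like cells. Cacng4 had the same shape, from 230 to 6.36 CPM in tumour 2 and from 101 to 67.7 CPM in tumour 4 (-2.40 ± 0.70, adjusted p = 0.0286), against 65.6 CPM in microglia-like cells of tumour 4. The oligodendrocyte-like cells of tumour 4 also kept more precursor RNA: the precursor markers summed to 2531 CPM and the 14 oligodendrocyte markers to 31483 CPM, against 1259 and 73185 CPM in tumour 2. The part of this in the gene differences was not tested.

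Grin3a fell from 97.4 to 2.54 CPM in tumour 2 but measured 2.57 and 2.56 CPM in tumour 4 (-3.91 ± 0.98, adjusted p = 0.0139). Gria3 fell from 37.5 to 2.18 CPM in tumour 2, with 12.3 and 6.39 CPM in tumour 4 (-2.62 ± 0.62, adjusted p = 0.0107). Grm5 fell from 54.9 to 5.45 CPM in tumour 2, with 7.86 and 5.11 CPM in tumour 4 (-2.75 ± 0.66, adjusted p = 0.0115). These 3 calls are carried by tumour 2, whose non-cycling sum held 39, 15 and 22 UMIs of the genes.

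Grin1 and Cacng8 rest on few molecules. In tumour 2 the counts were 9 UMIs in oligodendrocyte-like against 3 in non-cycling cells for Grin1 and 5 against 2 for Cacng8. In tumour 4 they were 0 against 47 UMIs for Grin1, whose 3-count limit of 3.83 CPM lies above the non-cycling level of 3.77 CPM, and 4 against 177 for Cacng8. The fitted changes were -2.79 ± 0.63 (adjusted p = 0.00831) and -2.30 ± 0.53 (adjusted p = 0.00942). The fall of Grin1 was therefore not detectable in tumour 4 alone at this depth. Dlg4 (PSD-95, the main scaffold of excitatory synapses) changed by -0.99 ± 0.28 (adjusted p = 0.0256), from 27.5 to 11.4 CPM in tumour 2 and from 38.9 to 25.6 CPM in tumour 4. Homer2 changed by -1.68 ± 0.52 (adjusted p = 0.0378), from 25.0 to 3.997 CPM in tumour 2, with 5.78 and 5.11 CPM in tumour 4.

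Dlg1 (SAP97), a scaffold that also acts in cell polarity, rose from 27.5 to 94.5 CPM in tumour 2 and from 21.2 to 75.4 CPM in tumour 4 (1.95 ± 0.27, adjusted p = 0.000327). Dlg2 rose from 2.498 CPM, which was 1 UMI, to 19.3 CPM in tumour 2 and from 1.77 to 10.2 CPM in tumour 4 (2.44 ± 0.51, adjusted p = 0.00498). Homer3 rose from 12.5 to 37.4 CPM in tumour 2 and from 15.97 to 31.9 CPM in tumour 4 (1.02 ± 0.30, adjusted p = 0.0286). All 3 were higher in both tumours, and their oligodendrocyte-like levels exceeded the microglia-like ones in both (for Dlg1, 14.0 and 20.1 CPM). Each tumour was also taken alone with a 95% interval for counting error. Of the 3 higher genes 3 were higher in tumour 2 and 3 in tumour 4. Of the 12 lower genes 10 were lower in tumour 2 and 6 in tumour 4. The fit called these genes on the same 2 tumours, so the counts show how each tumour contributes and are no separate test.

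**Figure D2:**
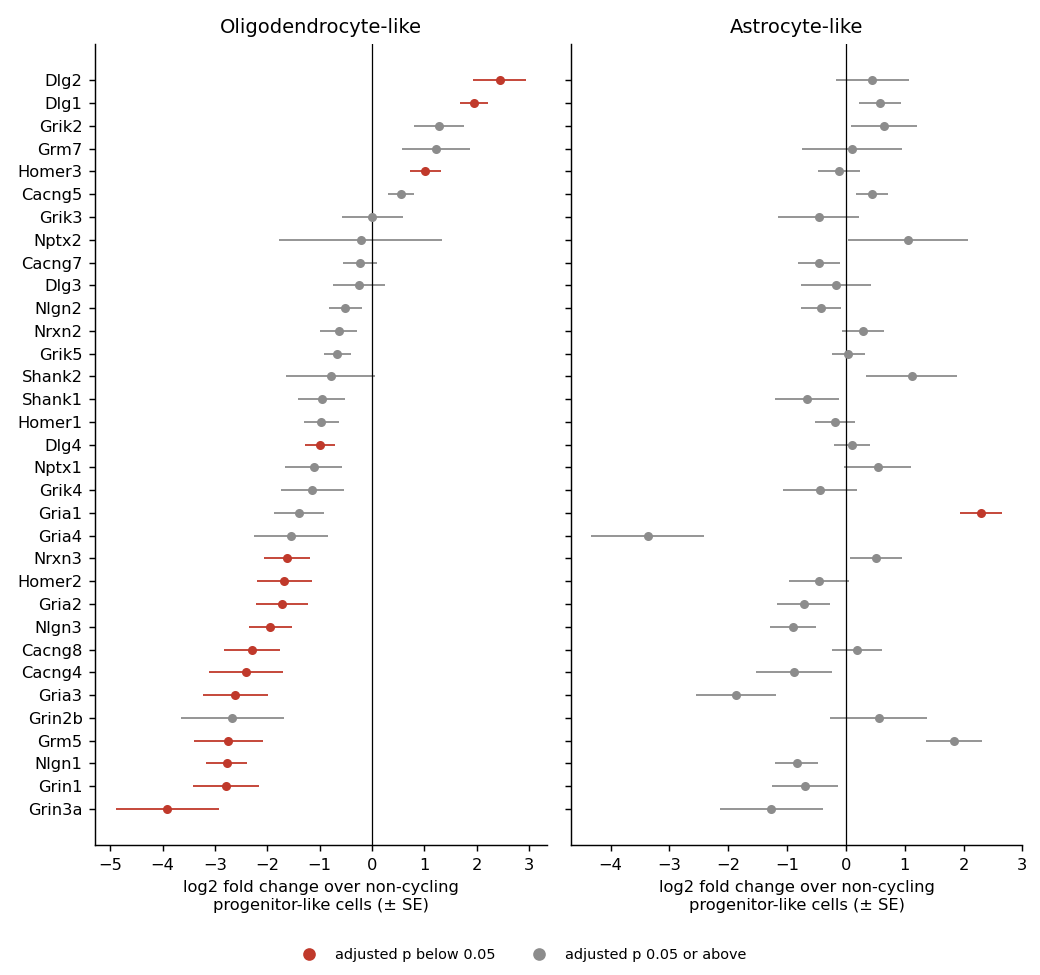
Log2 fold change (point) and its standard error (bar) of the 33 tested genes in oligodendrocyte-like cells (left) and astrocyte-like cells (right) over non-cycling progenitor-like cells, ordered by the left panel; red points have an adjusted p below 0.05. On the left 12 genes are lower and 3 higher, and on the right only Gria1 is red, at 2.30.

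**Figure D3:**
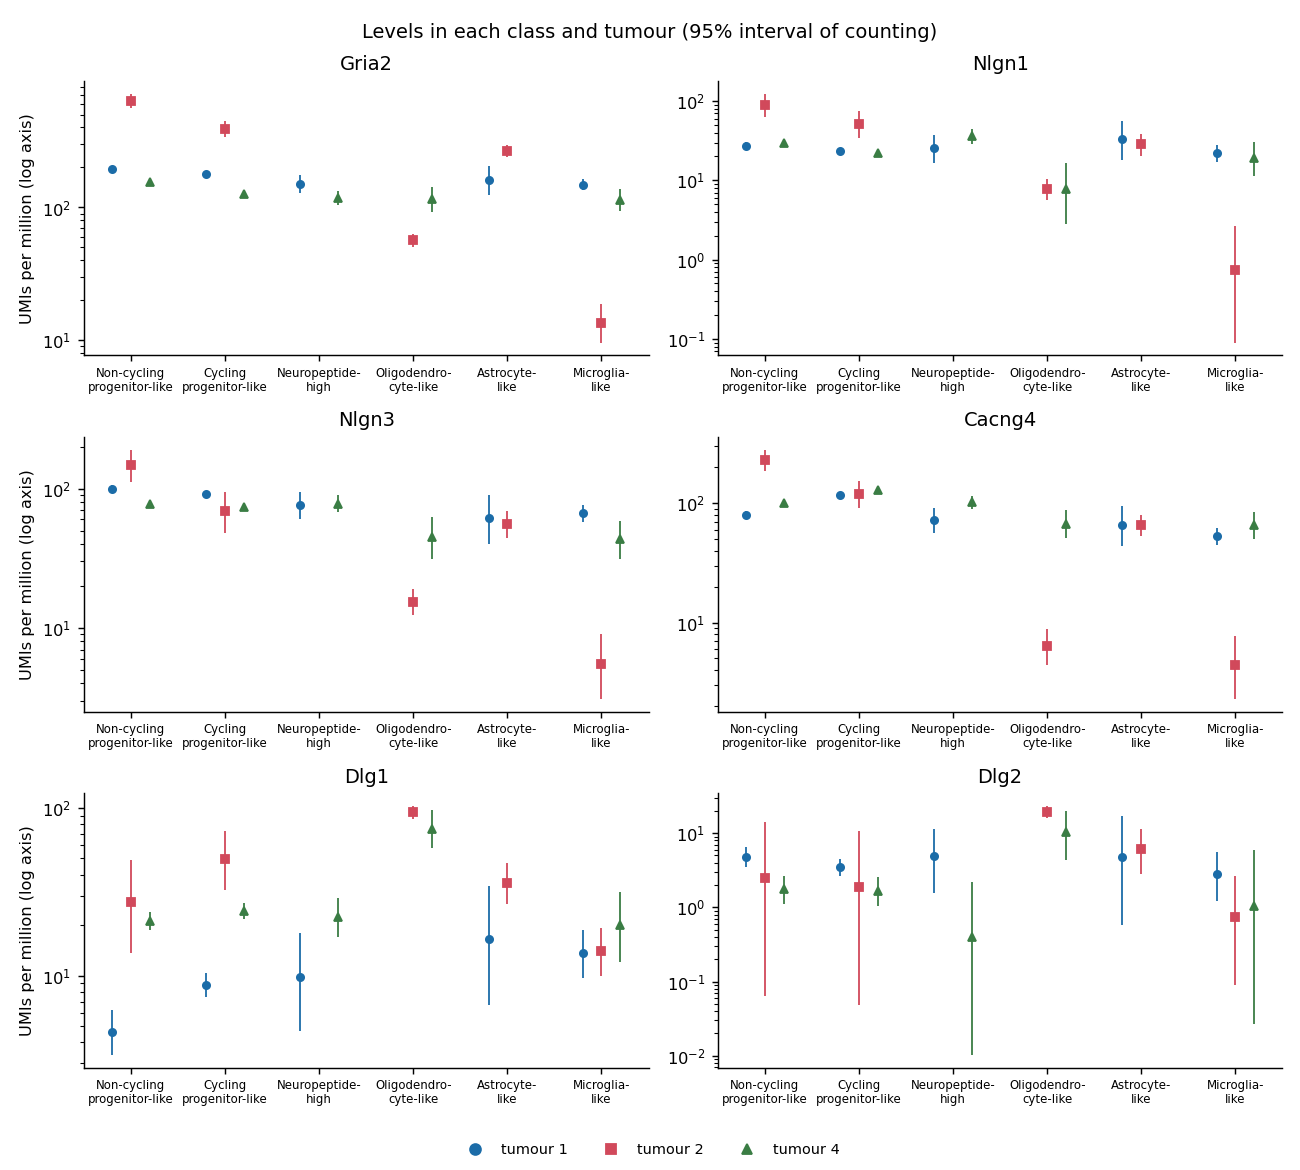
Level in CPM (log axis) of 6 genes in each class and tumour, with the exact 95% Poisson interval for counting error as a bar. Gria2, Nlgn1, Nlgn3 and Cacng4 are lower and Dlg1 and Dlg2 higher in oligodendrocyte-like cells, with the gap for Gria2 and Cacng4 much wider in tumour 2 (squares) than in tumour 4 (triangles).

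Leaving out tumour 2 gave 5 calls among 34 genes (14.7%, against 12.1% of all tested genes in that fit), with tumour 4 as the lone pair assumed to vary like the other sums: Nlgn1 and Nlgn3 lower (-2.03 and -0.94) and Dlg1, Dlg2 and Grik2 higher (1.86, 2.36 and 2.12). Leaving out tumour 1, which holds no oligodendrocyte-like cells but enters the estimate of the spread, gave 7 of 34 (20.6%, against 8.08% of all genes). Without the tumour block there were 2 calls of 33 (6.06%, against 4.55% of all genes in either direction). Both calls without the block were lower, where 0.715% of all genes were lower. Counted in either direction, the share of called genes without tumour 2 or without the block was near that of all genes. Of the 420 oligodendrocyte-like cells of tumour 2, 141 were in a single cluster. Its leading genes included Nefl, Penk and Vgf of the neuropeptide and neurofilament list. With that cluster left out there were 14 calls, 3 higher and 11 lower of 33 genes. In that fit 1341 of all 12022 tested genes were higher and 1026 lower.

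The other synapse genes were counted from 5 lists, beside the 11.6% higher and 9.24% lower among all tested genes. Of 16 other postsynaptic genes tested, 7 were lower and 1 higher, with Neto1, a kainate and NMDA receptor partner, at -4.12 ± 0.64 (adjusted p = 0.000741), Dlgap3, a scaffold, at -3.13 ± 0.72 and Shisa7, an auxiliary receptor subunit, at -2.89 ± 0.68. Of 26 other adhesion genes, 8 were lower, with Lrfn2 at -5.89 ± 1.69 and Slitrk1 at -4.25 ± 1.16, and 1 was higher, the receptor phosphatase Ptprd at 4.36 ± 0.48 (adjusted p = 5.8e-05). Of 16 presynaptic genes, 8 were lower, with the vesicle fusion gene Cplx1 at -3.18 ± 0.54 and Syn2 at -2.72 ± 0.38, and 1 was higher, the vesicle protein Sv2a at 2.17 ± 0.30. Of 8 genes for the uptake and conversion of glutamate and related amino acids, Glul (glutamine synthetase) was higher at 3.21 ± 0.41 and the neutral amino acid carrier Slc1a4 lower at -1.29 ± 0.35. Of 8 GABA receptor genes, 2 were lower and none higher, with Gabrg3 at -1.76 ± 0.52. The medians of these lists were -1.16, -0.95, -1.54, -0.44 and -1.71 in the order given, against 0.01 over all genes.

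In astrocyte-like cells 1 of the 33 tested genes differed, against 2.04% of all tested genes (1.8% for higher genes alone). Gria1, a calcium-permeable AMPA subunit when it assembles without Gria2, rose from 14.4 to 94.8 CPM in tumour 1 and from 5.00 to 32.4 CPM in tumour 2 (log2 fold change 2.30 ± 0.35, adjusted p = 0.00647). Both astrocyte-like values lay above the progenitor-like values of every tumour and above the microglia-like 18.5 and 1.10 CPM of the same tumours. The tumour 2 baseline was 2 UMIs. At 2000 UMIs per cell, a Gria1 UMI was found in 23.7% and 5.26% of astrocyte-like cells, against 3.66% and 1.69% of non-cycling progenitor-like cells.

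Grm5 measured 90.0 and 122 CPM in astrocyte-like cells against 11.1 and 54.9 CPM in the non-cycling cells (1.84 ± 0.48, adjusted p = 0.0722), so it was above the baseline in both tumours without passing the threshold. Gria4 had 1 UMI in the astrocyte-like cells of each tumour, against 97 and 8 UMIs in the non-cycling cells (-3.37 ± 0.96, adjusted p = 0.0997). Gria2 measured 161 and 267 CPM against 193 and 637 CPM (adjusted p = 0.532), and Cacng4 66.3 and 65.5 CPM against 79.5 and 230 CPM (adjusted p = 0.605). The median of the 33 genes was -0.12, against 0.01 over all genes, and 6 had an unadjusted p under 0.05.

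**Figure D4:**
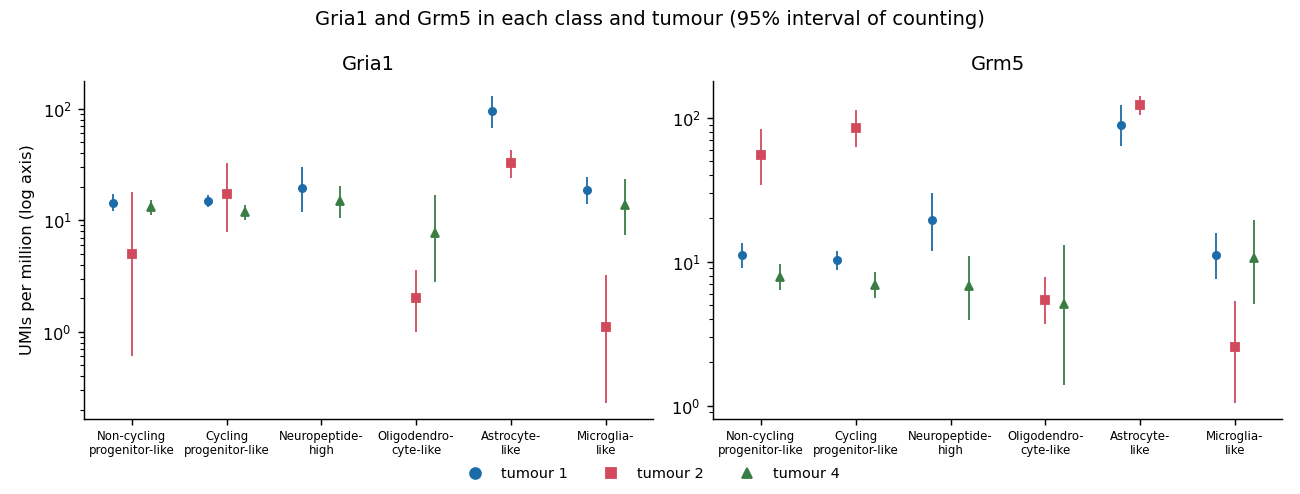
Level in CPM (log axis) of Gria1 and Grm5 in each class and tumour, with the exact 95% Poisson interval for counting error. The astrocyte-like points are the highest of their tumour for both genes, at 94.8 and 32.4 CPM for Gria1 and 90.0 and 122 CPM for Grm5.

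The 38 astrocyte-like cells of tumour 1 also carried vessel RNA: endothelial and mural markers summed to 422 and 810 CPM, against 13.1 and 58.0 CPM in the non-cycling cells, and Rgs5 was among the cluster's leading genes. The 190 astrocyte-like cells of tumour 2 had a median of 10.2% mitochondrial UMIs, against 7.21% in the non-cycling cells, and were led by Ttr and Igfbp2. In them, ependymal markers summed to 143 CPM against 2.498 CPM, macrophage markers to 786 against 217 CPM, microglia markers to 803 against 485 CPM and cycling genes to 1014 against 217 CPM. In tumour 1 the macrophage markers summed to 749 against 148 CPM and the cycling genes to 1168 against 636 CPM. The astrocyte markers summed to 3210 and 2716 CPM against 271 and 859 CPM. The part of these differences in the Gria1 result was not tested. Without tumour 2 the Gria1 change was 2.31 and without tumour 1 it was 2.00, each resting on 1 tumour pair. Without tumour 4 the change was 2.22, with 0 of the 33 genes called. In that fit 48 of all 11760 tested genes were higher and 10 lower. With astrocyte-like cells taken one by one from their marker UMIs, only the 27 such cells of tumour 4 were enough to enter the fit, and the change was -0.21 (adjusted p = 0.963). Of the other lists, 3 of 8 uptake genes were higher (Slc1a2 at 2.88 ± 0.63, Slc1a3 at 2.78 ± 0.49 and Glul at 2.01 ± 0.42, of which Slc1a2 is also a marker that named the class), as were 3 of 8 GABA receptor genes, Gabrb1 (2.57 ± 0.57), Gabra2 (2.06 ± 0.46) and Gabbr1 (1.10 ± 0.25), where 1.8% of all tested genes were higher. Of 16 other postsynaptic genes 1 was higher, the AMPA auxiliary subunit Shisa9 at 4.51 ± 0.67 (adjusted p = 0.00589). None of these lists had a lower gene, and no gene of the 26 other adhesion and 16 presynaptic genes passed.

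In cycling progenitor-like cells none of the 33 genes passed the threshold, where 5.35% of all tested genes did, 4.74% as higher; 2 had an unadjusted p under 0.05, Cacng8 (-0.56 ± 0.23, adjusted p = 0.265) and Dlg1 (0.52 ± 0.24, adjusted p = 0.315). DESeq2 also called none. Their median log2 fold change was -0.31, against -0.03 over all genes. Gria2 measured 178, 388 and 125 CPM in cycling against 193, 637 and 157 CPM in non-cycling cells, lower in all 3 tumours but by little in tumour 1 (-0.46 ± 0.38, adjusted p = 0.656). Nlgn3 measured 92.1, 68.5 and 73.2 CPM against 99.0, 147 and 77.0 CPM, and Nlgn1 23.3, 51.4 and 22.3 CPM against 27.3, 89.9 and 29.2 CPM. Nptx1 measured 29.5, 9.51 and 39.3 CPM against 42.9, 17.5 and 54.7 CPM (-0.57 ± 0.40, adjusted p = 0.578), also lower in each tumour. Other genes had a higher mean over the tumours in cycling cells. Nrxn3 averaged 45.8 against 32.5 CPM (0.09 ± 0.32) and Grm5 34.3 against 24.6 CPM (0.04 ± 0.39).

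Cacng4 split the tumours. It measured 117 and 130 CPM in cycling cells of tumours 1 and 4 against 79.5 and 101 CPM in non-cycling cells, but 120 against 230 CPM in tumour 2 (-0.09 ± 0.52, adjusted p = 0.971). The precursor markers summed to 2363, 2604 and 2708 CPM in cycling against 3048, 5055 and 3431 CPM in non-cycling cells of tumours 1, 2 and 4. Neuroblast markers summed to 611, 1609 and 802 CPM against 530, 999 and 734 CPM. The part of these marker differences in the gene differences between the 2 classes was not tested. Leaving out tumour 2 gave 3 calls among 34 genes (8.82%, below the 17.4% of all tested genes in that fit): Cacng4 higher (0.44 ± 0.11, adjusted p = 0.00762), and Cacng8 (-0.53 ± 0.15, adjusted p = 0.0133) and Nptx1 (-0.52 ± 0.14, adjusted p = 0.0126) lower. A fit of only these 2 classes over all 3 tumours called 4 of 32 genes (12.5%, against 17.0% of all tested genes, 7.19% as lower), all lower: Nptx1, Cacng8, Gria2 and Nlgn1 (-0.55, -0.55, -0.39 and -0.40). None of the 5 other synapse lists had a gene past the threshold in this comparison.

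In neuropeptide-high cells none of the 33 genes passed the threshold, none had an unadjusted p under 0.05, and DESeq2 called none; 0% of all tested genes passed, so the comparison has no called gene to set beside them. In a fit of only these 2 classes 1.41% of all tested genes passed, and 0 of 31 genes of the set. The class had the list that defines it at 4182 and 4155 CPM in tumours 1 and 4, against 1760 and 1911 CPM in the other non-cycling cells. Gria2 measured 151 and 118 CPM against 193 and 157 CPM, Nlgn3 76.0 and 78.0 CPM against 99.0 and 77.0 CPM, and Nrxn3 17.5 and 57.2 CPM against 13.8 and 41.2 CPM. Nptx1 measured 65.3 and 47.6 CPM against 42.9 and 54.7 CPM, above in tumour 1 and below in tumour 4. By counting error alone, 2 of the 25 named genes were lower and 2 higher in tumour 1, and 1 lower and 3 higher in tumour 4. These genes were picked partly by their level in the non-cycling cells, and the same count was not made over all genes. The counts are therefore no result about the set. The summed level of the 39 genes was 838 and 1040 CPM against 911 and 1013 CPM.

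The 11 neuron markers summed to 653 and 548 CPM in neuropeptide-high and 617 and 501 CPM in the other non-cycling cells of tumours 1 and 4, with Stmn2 as the largest part. Of the defining ones, the glutamate and GABA vesicle transporters Slc17a6 and Slc32a1 were at 0 UMIs in neuropeptide-high cells and in the other non-cycling cells of both tumours. Slc17a7 was at 0 against 0.322 CPM in tumour 1 and 0.400 against 0.722 CPM in tumour 4. Stmn2, a gene of growing neurites, was at 376 and 298 CPM against 374 and 280 CPM. Some markers were higher in neuropeptide-high cells: the vesicle protein Syt1 was at 93.5 and 52.0 CPM against 71.7 and 33.8 CPM, Gad2 at 17.6 against 9.79 CPM in tumour 4, and Rbfox3 at 5.85 against 0.752 CPM in tumour 1, where Gad2 was at 0 against 0.430 CPM. In tumour 4 Rbfox3 was at 3.20 against 3.61 CPM. Other markers were mixed or lower: Snap25 was at 35.1 and 25.6 CPM against 28.6 and 31.9 CPM in tumours 1 and 4. Camk2a was at 0 and 4.40 CPM against 0.859 and 5.22 CPM. Map2 was at 138.4 and 138.8 CPM against 137.5 and 130.1 CPM, and Gad1 at 3.90 and 8.40 CPM against 3.33 and 6.10 CPM. These marker levels were not tested.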

How the data were processed

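Per the labels' protocols, GFP+ cells of each tumour were run with 10x Genomics Single Cell 3′ v2 chemistry and sequenced on a NextSeq500. The deposited tables used here hold raw UMI counts per gene and cell, made by the authors with STAR 2.5.1 and Cell Ranger 1.3.0 on mm10, per the submitters' processing notes; the normalised tables were not used. The genes and lists were chosen with earlier results of these data known.

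The filters kept 3361, 1548 and 4377 cells, each having 500 or more genes and mitochondrial UMIs up to 20%; 1 cell over 10% haemoglobin was left out. Scrublet called 0, 8 and 0 doublets, under its usual yield, so doublets remain. Clusters (scanpy 1.11.5, 2000 variable genes, 30 components, Leiden resolution 1) were named from marker lists. The limits for naming and for neuropeptide-high cells were set, and revised once, after marker levels were seen and before any fit. Clusters whose 10 leading genes held more markers of another cell type (4 clusters; cycling and neuropeptide genes, which mark states, did not count) and cells between the cycling limits were left out.

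Counts were summed per tumour and class (at least 20 cells), filtered with filterByExpr, scaled by TMM and tested with edgeR 4.0.16 (12 sums, 5 residual degrees of freedom); classes of 1 tumour share its animal, which the block takes up. Tests were checked on simulated counts: 88.9% of 4-fold and 27.3% of 2-fold changes were recovered for oligodendrocyte-like, 74.5% and 20.6% for astrocyte-like, 99% and 67.7% for cycling and 93.9% and 28.1% for neuropeptide-high cells. Genes were named when called in any comparison or at 20 CPM or more in non-cycling cells of a tumour; of the other lists, up to 3 called genes of largest change per comparison, except 1 gene that is not reported here. Intervals (95%) and the limit of 3 counts for a count of 0 cover counting error only. Alternatives tried were DESeq2 1.42.0, no count filter, fewer classes, no block, other cell filters, resolutions, thresholds and class definitions, doublet scores and each tumour left out.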

Additional observations from a re-analysis of the deposited data

How the results depend on the processing

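Calls among the 33 tested genes were recomputed under each alternative. For oligodendrocyte-like cells the 15 calls became 9 with only the 2 classes compared, 5 with a stricter filter on cells (1 tumour pair left) and 2 with no replicate block; leaving out each tumour in turn gave 5 to 12, with 5 without tumour 2 and 7 without tumour 1. The other alternatives gave 11 to 21. The share of all tested genes called moved too. It was 20.9% in the main fit, 9.48% with only the 2 classes compared, 4.55% with no block and 8.08% without tumour 1. With classes from marker UMIs, 2097 of 13877 genes were higher and 1926 lower, beside 4 higher and 17 lower of 37 genes of the set. Of the 16 called results, 14 lost the call without the block, 11 under the stricter cell filter, 11 without tumour 2 and 9 without tumour 1, all in the same direction. For astrocyte-like cells the 1 call became 5 with no filter on low counts, 2 with only the 2 classes compared, 0 with no replicate block, 2 with the stricter cell filter, 0 with classes from marker UMIs, 0 with cycling called without thinning and 2 without the highest Scrublet scores; leaving out each tumour gave 0 to 5. Gria1 reversed to -0.21 with classes from marker UMIs, where only tumour 4 gave a pair. Over all tested genes, 631 of 19913 were higher and 213 lower with no filter on low counts. With only the 2 classes compared 2.11% were called, and with no block 0.0249%. Without the highest Scrublet scores 166 of 12772 were higher and 22 lower. With cycling called without thinning 49 of 10836 were higher and 5 lower. For cycling cells the 0 calls became 4 with only the 2 classes compared and 1 at Leiden resolution 0.5. Leaving out each tumour gave 0 to 3, and no replicate block gave 0. The shares of all tested genes called were 17.0% with only the 2 classes compared, 1.64% with no block, 1.94% without tumour 1 and 17.4% without tumour 2. At Leiden resolution 0.5, 1212 of 13259 genes were higher and 512 lower. For neuropeptide-high cells every alternative gave 0. In that comparison 1.41% of all tested genes were called with only the 2 classes compared and 0.441% without tumour 2. The cause of these shifts was not tested.

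At Leiden resolution 0.5 no oligodendrocyte-like or astrocyte-like comparison could be fitted. A limit of 6 neuropeptide UMIs, the clusters led by other markers kept, and tumour 2 without its neuropeptide-led oligodendrocyte-like cluster were added after the data were seen and gave 16, 14 and 14 oligodendrocyte-like calls. Over all tested genes these fits called 1484 higher and 1191 lower of 13343, 1457 and 1197 of 12902, and 1341 and 1026 of 12022. The block pairs classes of the same animal. Depth limits tumour 2 most: its 59 non-cycling cells hold 400372 UMIs, so that 1 UMI equals 2.498 CPM.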
